A study of Mus musculus with 2 samples.

Results

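Transcripts of tektins and of some other proteins that line the inside of ciliary microtubules were measured in epithelium of fetal mouse airways. The embryonic stages were E18.5 and E14.5, named by days of gestation. The study searched for effectors of FOXJ1, the transcription factor that drives motile ciliogenesis. The genes described here are Tekt1, Tekt2, Tekt3, Tekt4, Ribc1, Ribc2, Efhc2 and Mns1. They were taken as the probes whose gene name in the scanner output was one of these symbols or a former symbol of it, which gave 10 probes for 8 genes, out of 41170 probes and 19748 named genes. Both ages came from wild-type male CD-1 mice, an outbred stock, with no mutation or treatment. Each age was 1 sample, intralobular airway epithelium cut by laser from stained cryosections of 1 lung. The E18.5 material carried Cy5 and the E14.5 material Cy3, and both were hybridised to the same array, so that age and dye cannot be told apart. With 1 sample per age there was no replicate and no test, and differences below are described by size alone. Fewer ciliated cells and less RNA per cell cannot be told apart in dissected tissue.

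A motile cilium is built on a ring of doublet microtubules, each a complete A tubule with an incomplete B tubule attached to it. Proteins bound to the inner face of both tubules, the microtubule inner proteins, stiffen the doublet and hold its repeat. Tektins are long coiled-coil filaments that run in a bundle inside the A tubule. Ribc1 and Ribc2 are the mammalian relatives of RIB43A, a protein first found in the ribbon of flagellar doublets of the alga Chlamydomonas. Efhc2 carries DM10 and EF-hand domains and lies along the doublet wall, and Mns1 is a coiled-coil protein of the doublet that is required in the mouse for left-right asymmetry and for sperm flagella. In the airway these proteins belong to multiciliated cells, while the primary cilium has a simpler shaft.

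At E18.5, 7 of the 8 genes reached a 2-fold higher intensity or more, and 0 a 2-fold lower one. The same sizes were reached by 17.3% (higher) and 10.1% (lower) of all 17243 genes with a value, and the share lower was 15.4% both by the scanner software's ratio and in the authors' value table. The exception was Tekt3, which was dim at both ages. Tekt1, Tekt2, Tekt4 and Ribc1 (4 of 8) were 8-fold higher or more, a size reached by 3.17% of all genes. Ribc2 lay close to that size and passed it under 4 of 9 other settings, which made the count 5 of 8. These settings are not independent, since the authors' value table holds the scanner software's signals multiplied by a constant. The 7 genes measured at both ages had log2 ratios between 1.82 and 3.84, with a median of 3.18 (9.09-fold), a mean of 3.02 and an SD among genes of 0.73. The median over all genes measured at both ages was 0.05. Being measured at both ages means being well above background at E14.5 as well. This held for 7 of the 8 genes and for 16316 of all 17243 genes with a value. The 8 genes were chosen with earlier results of these data known, so their counts are descriptions.

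**Figure D1:**
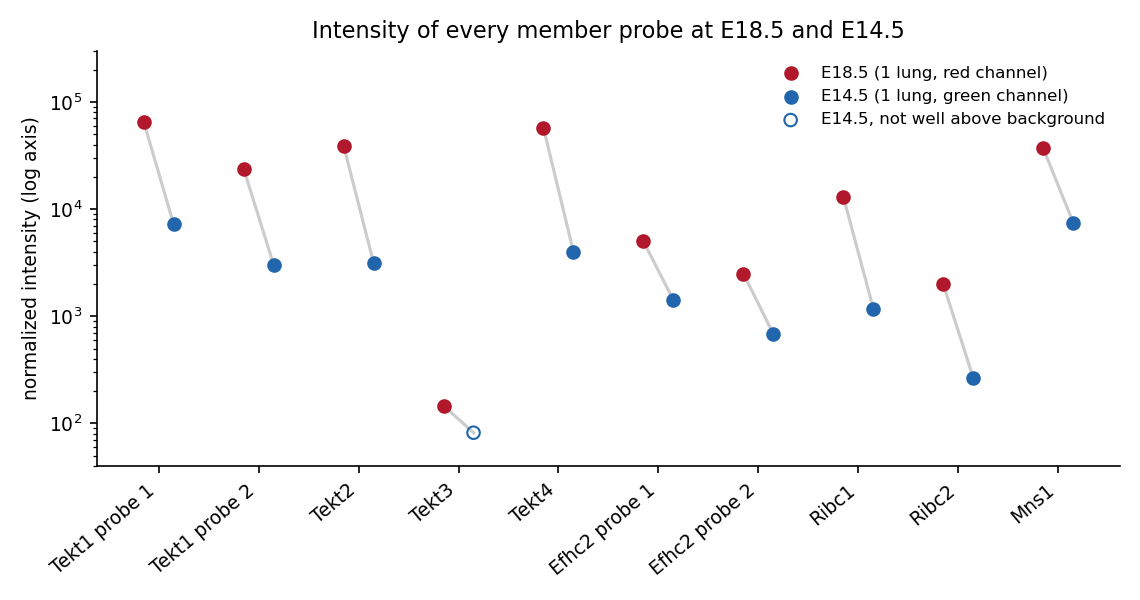
Normalized intensity on a log axis for each of the 10 probes, with E18.5 (red) left of E14.5 (blue) and a line joining the pair; each point is 1 spot and there are no error bars. Every probe is brighter at E18.5, and the open circle marks Tekt3 at E14.5, which was not well above background.

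Precision on an array is set by signal over background and by the number of arrays, here 1. Of all probes, 78.6% were well above background at E18.5 and 75.2% at E14.5, and none was saturated (0 probes). The median SD of the log2 ratio was 0.05 over 245 probes with at least 3 repeated spots and 0.33 over the probes of 6889 genes that had more than 1. Each of the 10 probes described here was spotted once, and the scanner software's own error of the log2 ratio was between 0.25 for Efhc2 and 0.42 for Tekt3. These spreads are technical and do not cover differences between animals, dissections or amplifications. Of 8 epithelial marker genes all 8 were well above background at both ages, and their intensities summed to 511929 at E18.5 and 291134 at E14.5, with 4 at least 2-fold higher and 1 lower. Krt8 was counted as within 2-fold from a log2 ratio of 0.75, but its second probe, also bright, gave 1.88. Markers of other cell types were in the material too. Summed intensities at E18.5 and E14.5 were 15037 and 3989 for 8 leukocyte genes (5 at least 2-fold higher, Itgam above background at E18.5 only), and 89746 and 12404 for 8 endothelial genes (2 higher, Kdr and Vwf). They were 385156 and 441458 for 8 mesenchyme and smooth muscle genes (3 lower), and 10195 and 41543 for 8 erythroid genes (1 higher, 4 lower). The part of these cells in the results below was not tested.

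Among the tektins, Tekt4 had the largest ratio of the 7 genes measured at both ages. Its intensity was 57094 at E18.5 and 3984 at E14.5, a log2 ratio of 3.84 (14.3-fold), with a scanner error of 0.40. Tekt4 is a tektin whose loss in mice impairs the forward swimming of sperm. Its probe lay at chr17:25204119-25204178 on mm8, plus strand, and it ranked 277 from the top among the 16316 genes measured at both ages. Tekt2, a tektin needed in mice for sperm motility and for the inner dynein arms of the flagellum, had an intensity of 39054 at E18.5 and 3158 at E14.5. Its log2 ratio was 3.63 (12.4-fold), rank 333, from a probe at chr4:125824490-125824549 on mm8, minus strand. The gap of 0.21 between Tekt4 and Tekt2 was smaller than the 0.33 by which probes of a gene typically spread.

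Tekt1 was measured by a pair of probes, which are shown because they read separate stretches of the transcript on the same array. The first lay at chr11:72160917-72160975 on mm8 and the second within chr11:72161948-72168052, both on the minus strand. The 60 bases of the second were spread over 6105 bases of the genome, as for a probe that crosses a splice junction.
Tekt1 first probe: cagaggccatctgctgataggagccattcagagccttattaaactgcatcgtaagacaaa
Tekt1 second probe: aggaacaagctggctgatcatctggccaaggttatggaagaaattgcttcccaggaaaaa
The first probe had an intensity of 65539 at E18.5 and 7211 at E14.5, a log2 ratio of 3.18 (9.09-fold). The second had 23830 at E18.5 and 3026 at E14.5, a log2 ratio of 2.98 (7.88-fold). The ratios of the pair differed by 0.21, less than the typical spread between probes of a gene, so both gave a similar size. Tekt1 had rank 465. Its background-subtracted E14.5 signals were 6579 and 2874, against 45.9 ± 4.33 for the negative control spots in that channel (SD, n = 153 spots).

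Tekt3 stood apart from Tekt1, Tekt2 and Tekt4 by its low intensity. Its probe had an intensity of 147 at E18.5 and 81.9 at E14.5. Only the E18.5 value was well above background, so only a nominal bound is given, 1.76-fold higher at E18.5 (log2 bound 0.81). The bound is the E18.5 signal over 83.4, the lowest E14.5 signal of any probe well above background. That value exceeded the spot's own signal, and the bound is open to dye bias. It is not a strict limit, since some probes with brighter E14.5 signals were not well above background either, such as 1 of Ptprc at 93.0. In the mouse Tekt3 is known chiefly from sperm, where its loss reduces motility. The probe was designed on a testis cDNA (accession AK016718 in the scanner output), and its bases lay within chr11:62889693-62897427 on mm8, plus strand, spread over 7735 bases. It is shown because it is the sole reading of this gene.
Tekt3 probe: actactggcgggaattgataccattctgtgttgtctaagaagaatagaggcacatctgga
Tekt3 was the one member whose log2 value moved by more than 0.33 between the main processing and another setting. Over 8 other settings the value, a bound in all but the one without a filter on dim probes, was between 1.47-fold and 3.44-fold, and it passed 2-fold in 4 of them. The highest came from the scanner software's signals.

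**Figure D2:**
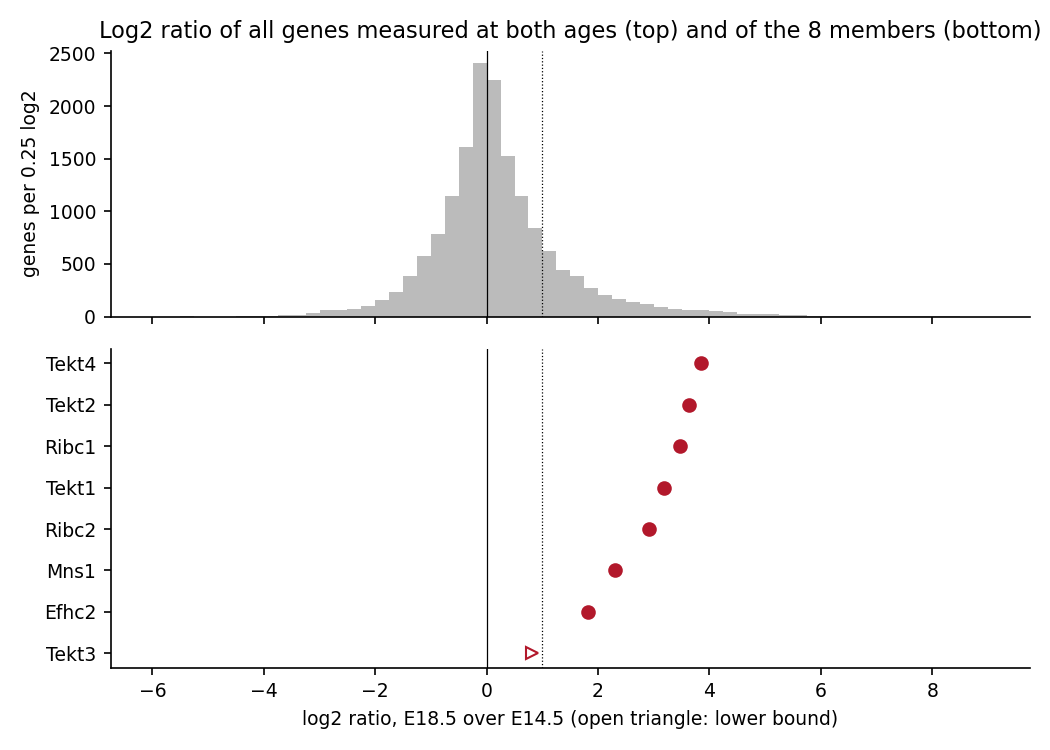
Histogram of log2 ratios (E18.5 over E14.5) of the genes measured at both ages, in steps of 0.25, above the log2 ratio of each of the 8 genes on the same axis. The dotted line marks 2-fold; 7 genes lie right of it between 1.82 and 3.84, and the open triangle is the nominal bound of Tekt3 at 0.81.

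The RIB43A relatives both had higher intensities at E18.5. Ribc1 had an intensity of 13028 at E18.5 and 1177 at E14.5, a log2 ratio of 3.47 (11.1-fold) and rank 376. Ribc2 had 1988 at E18.5 and 265 at E14.5, a log2 ratio of 2.91 (7.50-fold) and rank 573. Ribc2 was the dimmest probe at E14.5 among those measured at both ages, with a background-subtracted signal of 231 against 45.9 ± 4.33 for the negative controls (SD, n = 153 spots), and the offset added in background correction pulls such ratios towards 0. Its log2 ratio was 3.16 with no offset and 2.69 with an offset of 100. The Ribc1 probe lay at chrX:147345417-147345476 (minus strand) and the Ribc2 probe at chr15:84971951-84972010 (plus strand) on mm8. Their sequences are shown because the paralogues resemble each other there, with the longest run they share in capitals.
Ribc1 probe: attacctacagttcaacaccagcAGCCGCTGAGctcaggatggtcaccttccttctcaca
Ribc2 probe: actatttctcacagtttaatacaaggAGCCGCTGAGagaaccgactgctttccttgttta
The shared run was 10 bases, and at most 30 of the 60 bases matched in any ungapped alignment. These were the highest values among 43 pairs of probes for different members. Signal shared between the 2 paralogues was not tested.

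Efhc2 had the smallest ratio of the 7. Its pair of probes overlapped, so they are not independent readings of the transcript. The first lay at chrX:16289246-16289305 and the second at chrX:16289222-16289281 on mm8, both minus strand. The capitals mark the 36 bases that they share.
Efhc2 first probe: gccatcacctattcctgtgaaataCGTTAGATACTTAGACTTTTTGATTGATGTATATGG
Efhc2 second probe: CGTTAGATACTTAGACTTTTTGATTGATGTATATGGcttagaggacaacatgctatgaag
The first probe had an intensity of 4993 at E18.5 and 1415 at E14.5, a log2 ratio of 1.82 (3.53-fold) and rank 1336. The second had 2499 at E18.5 and 681 at E14.5, a log2 ratio of 1.87 (3.67-fold). The ratios differed by 0.06. Mns1, named for its expression in meiotic germ cells, had an intensity of 36795 at E18.5 and 7444 at E14.5 by its probe at chr9:72257034-72257093 on mm8, plus strand. Its log2 ratio was 2.31 (4.94-fold), with a scanner error of 0.29 and rank 907.

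By size the ratios ran Tekt4, Tekt2, Ribc1, Tekt1, Ribc2, Mns1 and Efhc2. The gaps between the first 5 neighbours were 0.21, 0.16, 0.28 and 0.28, each below the typical spread of 0.33 between probes of a gene, so their order is not resolved on this array. The gap from Ribc2 to Mns1 was 0.60 and that from Mns1 to Efhc2 was 0.49, both larger than that spread. That spread is an SD of single ratios, and a gap between ratios varies more, so exceeding it does not settle the order of these genes. None of these gaps was tested. Foxj1 had a log2 ratio of 2.19 in the same hybridisation, with an intensity of 22922 at E18.5 and 5039 at E14.5. Of the 7 genes, 6 had a larger ratio, from 0.12 above it for Mns1 to 1.66 above it for Tekt4, and Efhc2 lay below it (difference −0.37). Tekt3, with only a nominal bound, was left out. Among the 16316 genes measured at both ages, 5.55% had a larger ratio than Mns1 and 8.18% a larger one than Efhc2. The share above Foxj1 lies between these. The difference for Mns1 was within the spread between probes of a gene. That for Efhc2 was slightly larger than this spread of single ratios, which does not settle it. The 5 other genes with log2 ratios nearest to the median of the 7, over these 2 samples, were Slc28a3, a nucleoside transporter (3.18), Pgam2, a phosphoglycerate mutase (3.18), Fbxo36 (3.18), Maff, a small Maf transcription factor (3.19), and F10, coagulation factor X (3.19). Likeness here is that of a single ratio.

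**Figure D3:**
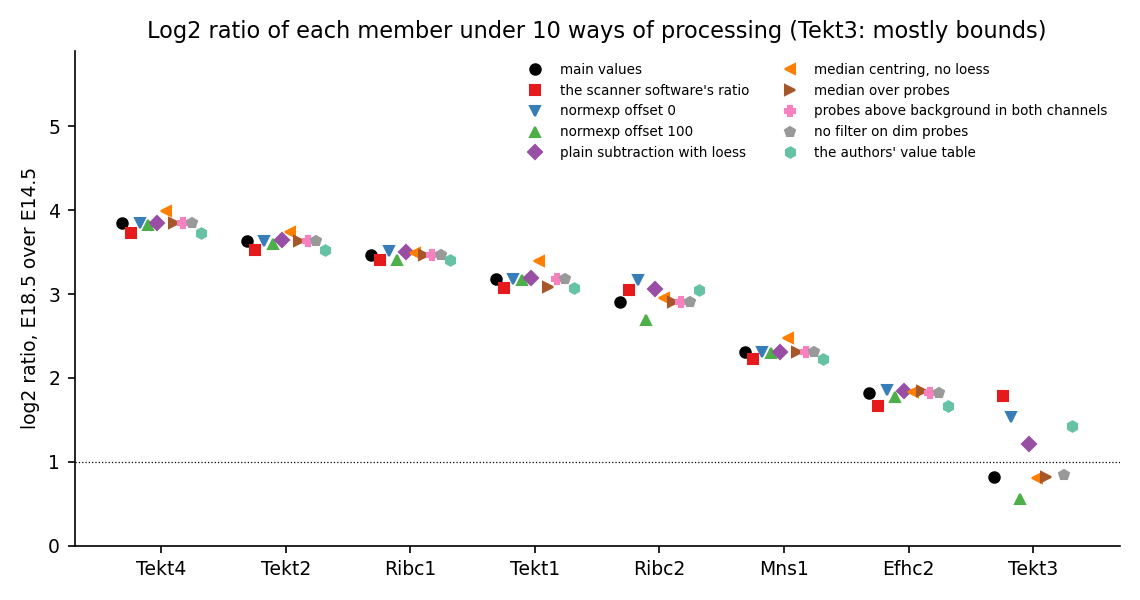
Log2 ratio (E18.5 over E14.5) of each of the 8 genes under the main processing (black) and 9 alternatives, with the dotted line at 2-fold. The points of 7 genes keep close together and above the line, and those of Tekt3, mostly nominal bounds, fall on both sides of it.

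Transcripts of other proteins of the doublet microtubule were read on the same array. Of a list of 21, a probe was found for 17, and all 17 were measured at both ages. Higher values at E18.5, by 2-fold or more, were seen for 15 of these (17.3% of all genes), and 14 reached 8-fold (3.17% of all genes). None was lower by 2-fold (0 of 17, against 10.1% of all genes), and 2 stayed within that size. The list was chosen with earlier results of these data known, so its counts are descriptions. The list median was 3.86, beside 3.18 for the 7 genes above (3.05 with Tekt3 at its bound) and 0.05 for all genes, and the difference between both sets was not tested. The largest ratios were those of 1700007K13Rik (Pierce1), which with its paralogue helps to dock outer dynein arms, of Spaca9 and of 1110017D15Rik (Spmip6). 1700007K13Rik had an intensity of 57490 at E18.5 and 1715 at E14.5 (log2 ratio 5.07, 33.5-fold), and a second probe, above background at E18.5 only, gave a log2 bound of 2.63. Spaca9 had 39719 at E18.5 and 1338 at E14.5 (4.89, 29.7-fold), and 1110017D15Rik had 99237 at E18.5 and 3526 at E14.5 (4.81, 28.1-fold).

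The smallest ratios of that list belonged to 1700012P22Rik (Cfap107), Cfap20 and Nme7. 1700012P22Rik was close to background, with an intensity of 122 at E18.5 and 104 at E14.5 (0.23). Cfap20, an inner-junction protein between the tubules, had 40591 at E18.5 and 21067 at E14.5 (0.95, 1.93-fold). Nme7, which also belongs to the gamma-tubulin ring complex of all cells, had 12489 at E18.5 and 5819 at E14.5 (1.10, 2.15-fold), with its second probe at 1.07.

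**Figure D4:**
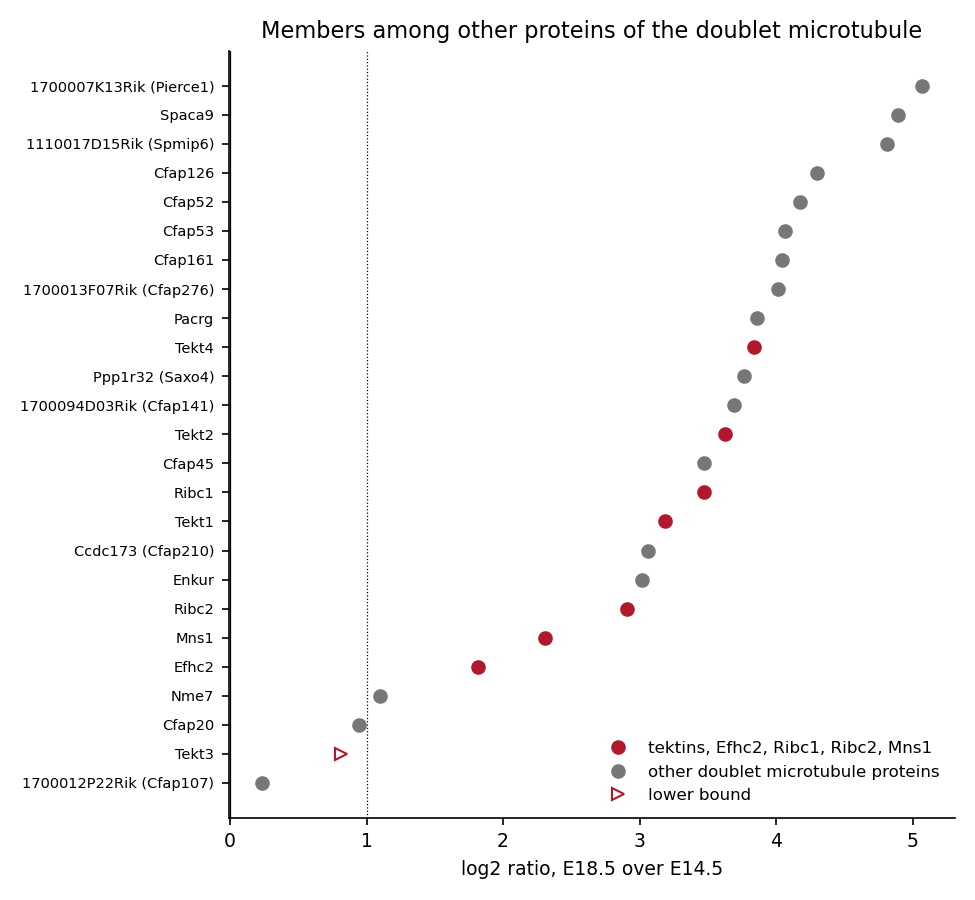
Log2 ratios (E18.5 over E14.5) of the 8 genes (red, Tekt3 as an open triangle for its nominal bound) and of 17 other doublet microtubule proteins (grey), sorted by size, with the dotted line at 2-fold. The 7 measured red points fall between 1.82 and 3.84, and the grey points between 0.23 and 5.07.

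Of 7 further doublet proteins known chiefly from sperm flagella, probes were found for 6. Tekt5, the tektin of sperm, was the only one of the 4 with a value that was 2-fold higher or more, against 17.3% of all genes. Its intensity was 748 at E18.5 and 266 at E14.5 (1.49, 2.81-fold). Spata48 had 230 at E18.5 and 172 at E14.5 (0.42), Tepp 231 at E18.5 and 232 at E14.5 (−0.01), and Tex43 97.7 at E18.5 and 97.5 at E14.5 (0.00). Ccdc105 and Tex37 were not well above background at either age, and Tex49 was not analysed here. The median of the 4 with a value was 0.21, beside 0.05 for all genes. Spata48, Tepp and Tex43 were dim, and the lowest E14.5 signal of any probe well above background was 83.4. The offset added in background correction pulls ratios of dim probes towards 0, so these values do not show that the genes were unchanged.

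The promoters of the 8 genes were then read for the sites of ciliary transcription factors. RFX factors bind the X-box, an inverted repeat found in many ciliary promoters, and FOXJ1 belongs to the forkhead family. Sequences came from RefSeq on GRCm38.p6, from 250 bases before to 50 bases after each annotated start, and all 8 genes were found in that table. The X-box pattern searched was GTTNC, any 3 bases and then GNAAC (N is any base), which reads the same on both strands. The half-sites GTTGCC and GTTGCT were searched on either strand. The half-sites overlap the pattern where they form its arms. The patterns were written after the members' promoters had been read, so their counts are descriptions and support nothing. The pattern was present in 4 of the 8 genes (Tekt2, Tekt4, Ribc1 and Ribc2), against 303 of 27025 genes in the table (1.12%) and 0.971% of 32851 promoters. One or both half-sites were present in 7 of 8, against 27.9% of all genes and 25.1% of promoters. By half-site, 6 held GTTGCC (14.1% of all genes, 12.5% of promoters) and 5 held GTTGCT (16.7% of genes, 14.8% of promoters).

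The 80 bases before the start are shown for 7 genes, since most matches lay there, with matches to the pattern or a half-site in capitals. The Ribc1 stretch runs 16 bases past the start, because its match lay there.
Tekt1, chr11:72361883-72361962, minus strand: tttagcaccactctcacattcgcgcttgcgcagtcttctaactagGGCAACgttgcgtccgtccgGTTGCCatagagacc
Tekt2, chr4:126325689-126325768, minus strand: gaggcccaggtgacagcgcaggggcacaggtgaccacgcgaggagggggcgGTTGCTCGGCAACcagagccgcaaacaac
Tekt3, chr11:63061579-63061658, plus strand: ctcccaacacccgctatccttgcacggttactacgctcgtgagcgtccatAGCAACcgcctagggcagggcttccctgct
Tekt4, chr17:25471510-25471589, plus strand: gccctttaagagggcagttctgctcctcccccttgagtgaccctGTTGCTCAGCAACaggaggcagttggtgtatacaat
Ribc1, chrX:152016280-152016375, minus strand: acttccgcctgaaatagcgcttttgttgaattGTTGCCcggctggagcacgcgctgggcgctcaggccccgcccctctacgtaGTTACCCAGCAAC
Ribc2, chr15:85132018-85132097, plus strand: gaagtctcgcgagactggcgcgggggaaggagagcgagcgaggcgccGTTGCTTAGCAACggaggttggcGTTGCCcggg
Mns1, chr9:72438449-72438528, plus strand: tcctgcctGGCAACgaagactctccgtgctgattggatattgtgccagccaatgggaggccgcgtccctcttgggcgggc
The pattern began 29 bases before the first annotated start of Tekt2, 36 bases before that of Tekt4 and 33 bases before that of Ribc2, and it began on base 4 after the start of Ribc1. Tekt1 held GTTGCC beginning 15 and 35 bases before its start, on opposite strands. Tekt3 held GTTGCT in reverse, beginning 30 bases before its start, and Mns1 held GTTGCC in reverse 72 bases before. No match was found in the Efhc2 window, which says only that these letters were not there. Of the 15 other doublet genes in the promoter table, 13 held a half-site and 2 held the pattern (1110017D15Rik and Ppp1r32).

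**Figure D5:**
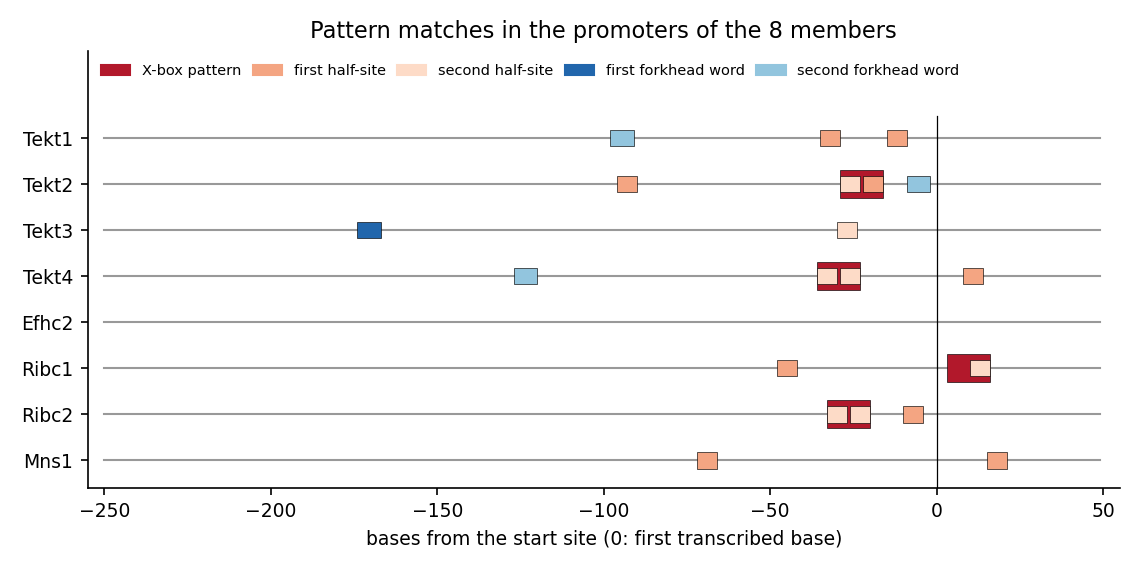
Positions of matches in the window of each of the 8 genes at its first annotated start, in bases from the start (0 is the first transcribed base); half-sites and forkhead words are numbered in the order the text names them. X-box matches of Tekt2, Tekt4 and Ribc2 begin 36 to 29 bases before the start, that of Ribc1 just after it, and Efhc2 has no match.

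Forkhead words were searched in the same windows. TGTTTAC, on either strand, was present in Tekt3 alone of the 8 genes, beginning 174 bases before the start, against 4.05% of all genes and 3.65% of promoters. TGTTTGC was present in Tekt1, Tekt2 and Tekt4, beginning 98, 9 and 127 bases before the first start, against 5.76% of all genes and 5.07% of promoters. Among the 15 other doublet genes, 1 held the first word (Cfap20) and 0 held the second. Set beside these matches, the 4 genes with the full X-box pattern had log2 ratios of 3.63 (Tekt2), 3.84 (Tekt4), 3.47 (Ribc1) and 2.91 (Ribc2). Of these, Tekt2 and Tekt4 also held a forkhead word. Tekt1, with half-sites and a forkhead word, was at 3.18. Mns1, with a half-site only, was at 2.31, and Efhc2, with no match, was at 1.82. Tekt3 held a half-site and a forkhead word and was dim at both ages. Matches and ratios did not run in the same order among the other doublet genes. Those with the full pattern were at 4.81 (1110017D15Rik) and 3.77 (Ppp1r32). 1700007K13Rik and Spaca9, with a half-site only, were at 5.07 and 4.89, and Cfap20, with a half-site and a forkhead word, was at 0.95. The patterns were written after the promoters of the 8 genes had been read. Any relation between matches and ratios was not tested, in these 8 genes or in all genes.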

How the data were processed

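Per the submitters' processing notes, the Agilent array was read with Agilent Feature Extraction 9.5.3.1. Scanner outputs of both samples were identical in 115 of 115 columns and were read as 1 array, with red for E18.5 and green for E14.5, per the labels. The deposited mean and local background intensities are linear and not background-subtracted, and the processed intensities, flags of 0 or 1 and log10 ratio are those of the scanner software, per the file headers. The authors' value table holds linear intensities, 0.339 times the processed ones, with a floor of 15. This was found by comparing both: 99.9% of values above the floor lay within 1% of that factor in either channel. It was not centred and its medians were 130 at E18.5 and 129 at E14.5. Its scale and direction are therefore known.

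Mean intensities were corrected with normexp (offset 50) and log2 ratios normalized by loess with a span of 0.3 and 4 iterations (limma 3.58.1, R 4.3.3), with 1639 control spots and 160 outlier spots at weight 0. A shift shared by the majority of genes is removed by loess and could not be measured. Among the 200 probes nearest in intensity to the brightest member probe the median log2 ratio was −0.06, and it was 0.19 near the dimmest one measured at both ages. The normalization was tried on simulated data built from brighter spots only, with few changed probes. It therefore says nothing about dim probes such as that of Tekt3. Python 3.11.15, pandas 2.3.3, numpy 2.4.6 and matplotlib 3.10.9 served for tables and plots. Current names came from a RefSeq gene table of GRCm38.p6 (24372 by accession, 6301 by symbol, 2426 by an older symbol, 8071 not named). Among several probes of a gene, the brightest that cleared background in either channel stood for it. A probe above background in 1 channel gave a nominal bound, which is not a strict limit, and a probe dim in both gave no value. Genes at 2-fold or more were counted, with no p-value. The genes named were all 8 members, 3 largest and 3 smallest of the list of other doublet proteins, the whole list of sperm proteins, and the 5 genes nearest the median. Members, lists and patterns were chosen with earlier results of these data known. Probe coordinates are on mm8, per the file headers, and the exon or UTR under each probe was not analysed here. One gene of the doublet list is not reported here.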

Additional observations from a re-analysis of the deposited data

How the results depend on the processing

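The members' ratios, median and counts, the Foxj1 ratio, the counts and median of the other doublet proteins and the shares of all genes were recomputed under 9 alternatives: the scanner software's ratio, normexp offsets of 0 and 100, plain subtraction with a floor of 1, median centring without loess, the median over probes, only probes above background in both channels, no filter on dim probes, and the authors' value table. Marker lists, the sperm list, ranks and the genes nearest in ratio were not. The count of members at least 2-fold higher was 7 or 8 throughout, and 0 were lower in any. The count at least 8-fold higher was 4 or 5, the fifth being Ribc2 with the scanner software's ratio (3.05), no offset (3.16), plain subtraction (3.06) and the authors' table (3.05). In each setting 6 of the 7 members measured at both ages had a larger ratio than Foxj1, and the share of all genes above Foxj1 was not recomputed. The members' median log2 ratio was between 3.07 and 3.40, and that of the other doublet proteins between 3.77 and 3.92, with 14 to 16 of them at least 2-fold and 12 to 14 at least 8-fold higher. The share of all genes at least 2-fold higher was between 15.2% and 19.2%, and that at least 8-fold higher between 2.63% and 4.04%. The share at least 2-fold lower was 10.1% in the main processing, 15.4% with the scanner software's ratio and 15.4% in the authors' table. The settings are not independent. Both changes to the filter on dim probes left the 7 members measured at both ages at their main values. So did the median over probes for genes with 1 probe. The scanner software's ratio and the authors' table gave these 7 the same ratios. Of 179 recomputed values, 6 moved by more than the spread of 0.33 between probes or, for counts, by more than 1.5 times. They were the 2 shares of 15.4% at least 2-fold lower and 4 values of Tekt3. The log2 bound of Tekt3 was 0.81 in the main processing. It was 1.78 with the scanner software's signals, 1.54 without an offset, 1.21 with plain subtraction and 1.43 from the authors' table, past 2-fold in each, and it had no value when both channels had to be above background. The cause was not tested. Median centring moved the median of all genes to 0.13 and the scanner software's ratio moved it to −0.08. No paired analysis was possible because each age had 1 sample. Tekt3 was not well above background at E14.5, and all values rest on 1 array in 1 dye orientation.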
